A study of Mus musculus with 2 samples.

Results

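The genes described here encode the light chains of conventional myosin: Myl1, Myl2, Myl3, Myl4, Myl6, Myl6b, Myl7, Myl9, Myl12a and Myl12b. They were taken by gene identifier, with the version number cut off, from the deposited gene and transcript tables, and all 10 were found among 43346 Ensembl genes, with 49 transcripts. Total RNA was sequenced from 2 hearts of newborn mice of the inbred strain B6NCrl at postnatal day 0, with no treatment or engineered allele labelled. Replicate 1 was the single heart of pup 2 and replicate 2 that of pup 3, both from pregnancy 1, although both carry the same donor identifier. Sex was not collected. There was thus 1 group (neonatal heart, n = 2), and the comparisons are between genes within each heart and between the hearts. With 2 hearts the smallest two-sided p of an exact permutation or sign test is 0.5, so no test was run and no p-value is given. The libraries comprised 46151722 and 44707283 expected counts, that is, estimated reads. A value with ± is a mean and SD over the hearts (n = 2), and of a pair of values the first belongs to replicate 1.

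Conventional myosin is built from a pair of heavy chains, each of which binds an essential and a regulatory light chain along the lever arm that joins its motor head to its tail. The regulatory light chain carries the serine that myosin light chain kinases phosphorylate and myosin phosphatase dephosphorylates, and this sets how readily the head engages actin. In the mammalian heart, Myl2 and Myl3 are known as the ventricular regulatory and essential chains and Myl7 and Myl4 as their atrial counterparts, whereas Myl1 is the essential chain of fast skeletal muscle. Myl9, Myl12a and Myl12b encode regulatory chains of smooth and nonmuscle myosin, Myl6 their usual essential chain, and Myl6b a further essential chain found in slow skeletal and nonmuscle cells.

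The 5 regulatory chains carry the kinase site near their first residue. The starts of the coding sequences are shown because each member's serine codon, in capitals, lies there, followed by the next 3 codons. They come from the GENCODE M21 transcripts and run 5′ to 3′ from the start codon.
Myl2: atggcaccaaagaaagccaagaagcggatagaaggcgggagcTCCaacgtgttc
Myl7: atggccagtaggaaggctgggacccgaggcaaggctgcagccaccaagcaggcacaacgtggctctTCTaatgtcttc
Myl9: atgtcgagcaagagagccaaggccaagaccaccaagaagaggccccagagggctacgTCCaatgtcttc
Myl12a: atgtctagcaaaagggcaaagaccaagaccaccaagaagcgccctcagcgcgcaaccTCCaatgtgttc
Myl12b: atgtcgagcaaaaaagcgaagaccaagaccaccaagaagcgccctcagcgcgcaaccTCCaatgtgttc
The serine was codon 15 in Myl2, codon 23 in Myl7 and codon 20 in Myl9, Myl12a and Myl12b, counting the start codon as 1. Over the whole coding sequence, Myl12a and Myl12b were identical at 501 of 519 bases (96.5%), with 4 codons that change the residue. Myl9 was identical to Myl12a at 85.5% and to Myl12b at 86.3% of bases. With gaps counted as differences, the cardiac pair, Myl2 and Myl7, shared 325 of 528 alignment columns (61.6%), 27 of the columns being gaps. Myl3 and Myl4 shared 452 of 618 columns (73.1%), of which 39 were gaps.

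Likeness of this kind bears on how reads are shared between genes. Of the 31-base words of the Myl12b coding sequence, 59.5% also occurred in that of Myl12a, and the longest shared run was 105 bases. The posterior SD of the deposited count was nevertheless at most 0.348% of the count for any light chain gene, the highest being that of Myl12b. None of the sources used here says whether counting used strand, and without it a gene's own reads and those of an overlapping antisense transcript cannot be told apart.

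Light chain RNA made up 2.61% ± 0.0655 (n = 2) of the TPM of these hearts, where TPM is the abundance of a transcript divided by its length and scaled to a fixed total. Of the 10 genes, 9 were detected at 1 TPM or more in both hearts, against 54.5% of 21461 nuclear protein-coding genes. Levels ran from 11771 ± 66.7 TPM for Myl2 to 0.620 ± 0.156 TPM for Myl6b, and 4 members ranked among the 100 most abundant nuclear protein-coding genes by mean TPM. The members fell into the same order in both hearts. From the highest this was Myl2, Myl3, Myl7, Myl9, Myl4, Myl12a, Myl6, Myl1, Myl12b and Myl6b. In each of the 9 neighbouring steps, both hearts of the higher gene lay above both of the lower, with deposited credibility bounds that did not overlap, and the narrowest step was Myl12a over Myl6 at 1.10-fold.

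**Figure D1:**
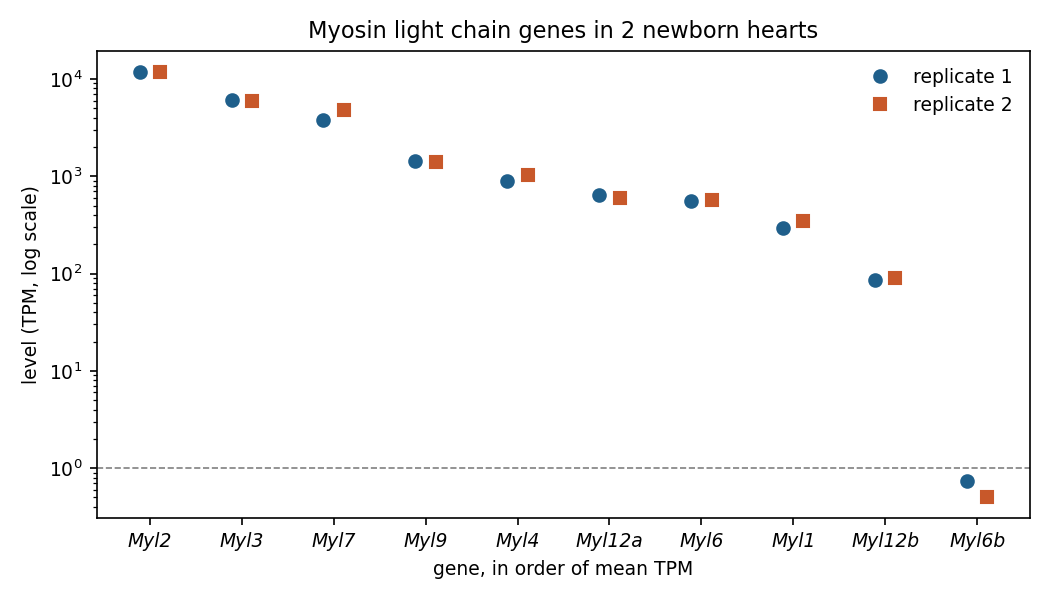
Level of each myosin light chain gene (vertical axis, TPM on a log scale) in replicate 1 (circles) and replicate 2 (squares), genes in order of mean TPM; the dashed line marks 1 TPM. The 2 hearts nearly coincide for every gene except Myl7, Myl4, Myl1 and Myl6b, and the last is the only member below the line.

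Myl2 (ENSMUSG00000013936.8; mm10 chromosome 5, 122100951 to 122113472, plus strand) was the most abundant light chain. It measured 11818 TPM in replicate 1 against 11724 TPM in replicate 2, from 252850 and 248171 expected counts, and ranked 2 among nuclear protein-coding genes in both hearts. The hearts were nearly level, and Myl2 alone gave 45.0% ± 1.38 of all light chain TPM. Myl7 (ENSMUSG00000020469.8; chromosome 11, 5896637 to 5898782, minus strand) measured 3814 TPM in replicate 1 against 4831 TPM in replicate 2, from 71463 and 89553 counts. Replicate 2 was the higher, and both hearts lay below every Myl2 value. Within the sarcomeric regulatory chains Myl2 took 75.6% of TPM in replicate 1 and 70.8% in replicate 2, the remainder being Myl7.

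Among the sarcomeric essential chains, Myl3 (ENSMUSG00000059741.9; chromosome 9, 110741861 to 110769798, plus strand) led. It measured 6131 TPM in replicate 1 against 6005 TPM in replicate 2, ranks 10 and 9 among nuclear protein-coding genes. Myl4 (ENSMUSG00000061086.8; chromosome 11, 104550663 to 104595753, plus strand) measured 903 TPM in replicate 1 against 1036 TPM in replicate 2. The atrial essential chain was thus the higher in replicate 2, as was Myl7, while the ventricular essential chain was not. Myl1 (ENSMUSG00000061816.11; chromosome 1, 66924295 to 66945404, minus strand) measured 296 TPM in replicate 1 against 347 TPM in replicate 2, from 7844 and 9086 counts. Within the sarcomeric essential chains, Myl3 took 82.5% ± 1.67 of TPM, Myl4 13.2% ± 1.2 and Myl1 4.37% ± 0.470.

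The members known from atria and ventricles were set against each other within each heart. The fold of Myl2 over Myl7 was 3.10 in replicate 1 and 2.43 in replicate 2, and that of Myl3 over Myl4 was 6.79 and 5.79. Summed, Myl2 and Myl3 reached 17949 and 17728 TPM in replicates 1 and 2, while Myl7 and Myl4 reached 4717 and 5867 TPM. Ventricular over atrial light chains therefore stood at 3.805-fold in replicate 1 and 3.02-fold in replicate 2. The gap between hearts lay mainly in the sum of Myl7 and Myl4. From which chamber their RNA came was not tested. Whole hearts hold both chambers, and in bulk RNA fewer cells of a type and less RNA per cell cannot be told apart. The ventricular regulatory to essential ratio, Myl2 over Myl3, was 1.93 and 1.95, closer between hearts than the atrial one, Myl7 over Myl4, which was 4.22 and 4.66. All 10 pairs of light chains fixed for comparison kept their direction in both hearts by more than the hearts differed.

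Skeletal light chains were split. Mylpf, the fast skeletal regulatory chain that partners Myl1 in skeletal muscle, measured 3.64 TPM (71 counts) in replicate 1 against 2.03 TPM (51 counts) in replicate 2. In these TPM values Myl2 was 3247-fold and 5775-fold above it. The deposited mean length of Mylpf was 611 and 763 bases, and its posterior mean TPM was 4.73 and 3.39. The size of both folds, and their gap between the hearts, therefore depends on how few reads were assigned to transcripts. Myl1 was thus far above Mylpf in both hearts although both belong to fast skeletal muscle. Of 16 other skeletal muscle genes, 6 were detected, with a summed level of 199 and 186 TPM in replicates 1 and 2. Most of that sum came from Acta1, skeletal actin (113 and 90.6 TPM), and Tnnt1, slow troponin T (71.2 and 80.0 TPM), both of which developing heart also expresses. The fast heavy chain gene Myh4 was the only 1 of the 16 with no count in either heart. Others of the list had reads at low levels, such as Mybpc2 (261 and 252 counts) and Myh8 (221 and 206 counts). Myl10, a further regulatory light chain gene, had no count in either heart. For Myl10, 3 counts would have been 0.109 and 0.110 TPM in replicates 1 and 2, a limit for counting error only.

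Of the smooth and nonmuscle chains, Myl9 (ENSMUSG00000067818.6; chromosome 2, 156775420 to 156781658, plus strand) was the highest. It measured 1433 TPM in replicate 1 against 1397 TPM in replicate 2, from 55275 and 53286 counts. Myl12a (ENSMUSG00000024048.10; chromosome 17, 70993656 to 71002878, minus strand) measured 641 TPM in replicate 1 against 601 TPM in replicate 2. Myl12b (ENSMUSG00000034868.8; chromosome 17, 70973133 to 70990890, minus strand), whose product is nearly that of Myl12a, measured 85.98 TPM in replicate 1 against 90.7 TPM in replicate 2. The genes with the most similar coding sequences thus lay 7.46-fold and 6.63-fold apart in the 2 hearts, although only 2765 bases separate them on the same strand. The deposited length of Myl12b-201 was 1253 bases against 2143 in GENCODE M21, so the TPM of Myl12b rests on the shorter model. GENCODE M21 also gives the name Myl12b to a further gene on the same strand, 70974119 to 71002208, which overlaps both Myl12b and Myl12a. That further gene is absent from the deposited quantification, so none of its reads were counted under its own name. Whether they were counted under Myl12a or Myl12b was not tested. Myl9 was 2.23-fold and 2.32-fold above Myl12a, and it took 66.6% ± 0.387 of the regulatory TPM of this class.

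The neighbouring essential chain genes Myl6 and Myl6b were still further apart. Myl6 (ENSMUSG00000090841.1; chromosome 10, 128490860 to 128494145, minus strand) measured 558 TPM in replicate 1 against 575 TPM in replicate 2. Myl6b (ENSMUSG00000039824.3; chromosome 10, 128494157 to 128498685, minus strand) measured 0.730 TPM in replicate 1 against 0.510 TPM in replicate 2, from 26 and 18 counts, with 3 counts worth 0.0848 and 0.0857 TPM. The annotated genes lie on the same strand with 11 bases between them, and their mean levels differed 913-fold. Myl6b was the only member below 1 TPM, and its deposited bounds, 0.475 to 1.04 TPM and 0.307 to 0.780 TPM, overlapped between the hearts.

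Summed by role, regulatory chains reached 17792 and 18643 TPM in replicates 1 and 2, and essential chains 7889 and 7963 TPM. The ratio of regulatory to essential RNA was 2.26 and 2.34, that is, above equality in both hearts, although the chains occupy each myosin head in equal number. Among sarcomeric chains the ratio was 2.13 and 2.24, and among smooth and nonmuscle chains it was 3.87 and 3.63. In expected counts, which are not divided by length, these ratios were 1.42 and 1.49 and 6.83 and 6.44. Sarcomeric chains exceeded smooth and nonmuscle chains 8.45-fold in replicate 1 and 8.99-fold in replicate 2.

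The heavy chains that these light chains bind were less abundant per length. Sarcomeric heavy chains, 10 genes of which 3 were detected, summed to 4489 and 3496 TPM in replicates 1 and 2. Myh6, the alpha heavy chain, accounted for 3871 and 3104 TPM, and Myh7, the beta heavy chain, for 607 and 382 TPM, while Myh7b reached 9.52 and 9.22 TPM and Myh8, a perinatal skeletal form, stayed below 1 TPM in both hearts. Myh6 and Myh7 were lower in replicate 2, and the ratio of sarcomeric essential chains to sarcomeric heavy chains was 1.63 in replicate 1 and 2.11 in replicate 2, and that of regulatory chains was 3.48 and 4.74. Without division by length both classes lay below the heavy chains: in expected counts the essential ratio was 0.240 and 0.313 and the regulatory ratio 0.341 and 0.466. The smooth and nonmuscle heavy chains, Myh9, Myh10, Myh11 and Myh14, summed to 46.6 and 41.1 TPM, and the regulatory chains of that class exceeded them 46.3-fold and 50.8-fold, or 8.71-fold and 9.73-fold in expected counts. Myh10, nonmuscle heavy chain IIB, led with 29.8 and 26.3 TPM, whereas Myh11, the smooth muscle heavy chain, stood at 2.44 and 2.25 TPM. Myl9 therefore stood far above the defining smooth muscle heavy chain. Of the 10 smooth muscle and pericyte markers all were detected, with a sum of 1799 and 1511 TPM in replicates 1 and 2, mostly Acta2, smooth muscle actin, at 1130 and 884 TPM. From which cells the RNA of Myl9 or of these markers came was not tested.

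**Figure D2:**
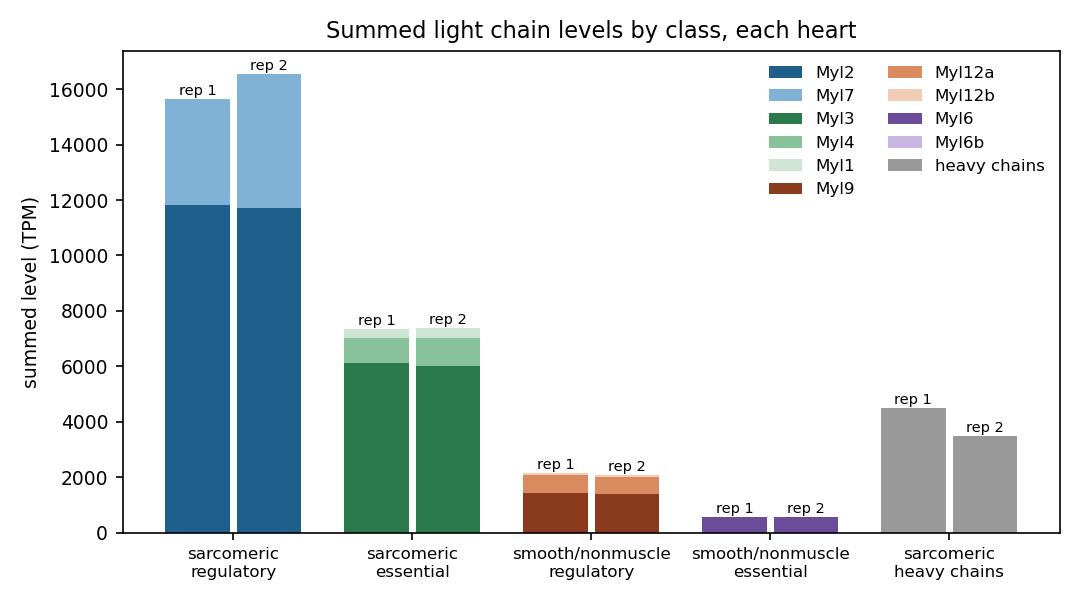
Summed level in TPM (vertical axis, linear from 0) of the 4 classes of light chains and of the sarcomeric heavy chains, left bar replicate 1 and right bar replicate 2, with each light chain gene as a coloured segment. Myl2 and Myl3 form most of the sarcomeric bars, Myl7 is the segment that is visibly taller in replicate 2, and the heavy chain bar is shorter in replicate 2.

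The regulators of light chain phosphorylation were expressed with 1 kinase gene well ahead of the rest. Of 18 kinases, 14 were detected in both hearts. Mylk3, the cardiac myosin light chain kinase, measured 258 TPM in replicate 1 against 241 TPM in replicate 2. Camk2d, the main cardiac calmodulin-dependent kinase II, followed at 95.3 and 83.0 TPM, and Dapk3, also called zipper-interacting kinase, at 17.1 and 18.8 TPM. Mylk, the smooth muscle light chain kinase, stood at 2.48 and 2.72 TPM, and Mylk2, the skeletal kinase, at 0.130 and 0.110 TPM. Mylk4, a further gene of this family, stood at 0.980 and 0.640 TPM. Among Mylk, Mylk2, Mylk3 and Mylk4, Mylk3 was thus far above the others. Mylip, which was named for binding the regulatory light chain and encodes a ubiquitin ligase, stood at 5.41 and 5.91 TPM.

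Of 10 genes of myosin phosphatase and its inhibitors, 9 were detected. The inhibitor genes Ppp1r14c and Ppp1r14b were the highest, at 232 and 236 TPM and at 95.5 and 96.5 TPM. The catalytic subunit gene Ppp1cb followed at 82.6 and 75.1 TPM, and Ppp1r12a, a targeting subunit gene, at 34.6 and 30.0 TPM. The inhibitor gene Ppp1r14c was thus above Ppp1cb and Ppp1r12a in each heart. Of 11 thick filament partners 9 were detected, led by Mybpc3, cardiac myosin binding protein C, at 918 and 806 TPM and Ttn, titin, at 531 and 486 TPM. The chaperone genes Hsp90aa1 (193 and 191 TPM) and Unc45b (128 and 116 TPM), which assist myosin folding, came next.

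**Figure D3:**
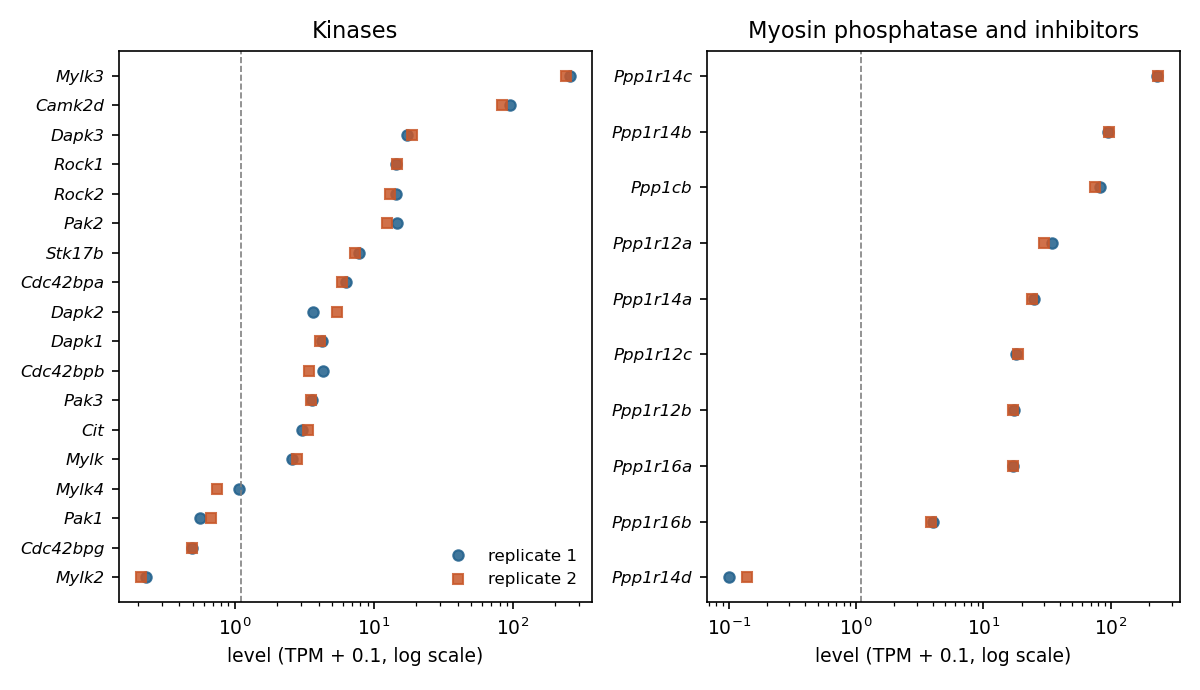
Levels (horizontal axis, TPM + 0.1 on a log scale) of the kinases that phosphorylate regulatory light chains (left) and of myosin phosphatase genes and inhibitors (right), replicate 1 as circles and replicate 2 as squares; the dashed line marks 1 TPM. Mylk3 and Camk2d stand to the right of the other kinases, and Ppp1r14c to the right of the phosphatase genes.

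Each light chain gene was read mostly as a single transcript, the same in both hearts for 10 of 10 genes. The deposited annotation gave 1 transcript each for Myl6, Myl6b and Myl7, so splice forms of Myl6 could not be compared. For the other 7 genes, the bounds of the first and second transcript did not overlap in either heart. The main transcript held 95.8% and 95.9% of the gene's TPM for Myl2 (Myl2-201), 94.6% and 95.9% for Myl3 (Myl3-201), 97.7% and 97.6% for Myl9 (Myl9-201), and 98.3% and 98.4% for Myl12b (Myl12b-201). Myl4 and Myl12a were the members with a second transcript of 5% or more.

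Myl4 was the member with the largest second transcript. Its main coding transcript, Myl4-202, held 71.7% of TPM in replicate 1 and 74.4% in replicate 2. A further 25.1% and 23.1% was assigned to Myl4-204, a transcript of 677 bases annotated as a retained intron. Of its 6 exons, 5 end where exons of Myl4-202 end, and its first exon begins 77 bases before the second exon of Myl4-202. In expected counts its share was 19.2% and 17.7%. Counting coding transcripts only, Myl4 measured 671 TPM in replicate 1 against 792 TPM in replicate 2, and Myl3 over Myl4 was 9.02-fold and 7.49-fold in place of 6.79-fold and 5.79-fold. Myl12a-201 held 87.7% and 88.2% of Myl12a, and Myl12a-206, which starts 4542 bases from it and has the same coding sequence, held 9.33% and 9.77%, or 17.9% and 18.6% in expected counts.

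Myl1 is known for a long and a short form made from separate starts, both shown here because they differ only up to the shared exon, whose first 20 bases are in capitals. The sequences run 5′ to 3′ from the start codon and come from the GENCODE M21 transcripts.
Myl1-201: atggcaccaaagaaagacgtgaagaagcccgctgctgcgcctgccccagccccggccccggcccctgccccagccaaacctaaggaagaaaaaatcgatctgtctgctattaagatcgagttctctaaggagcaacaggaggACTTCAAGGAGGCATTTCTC
Myl1-202: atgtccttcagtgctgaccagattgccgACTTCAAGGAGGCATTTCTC
The start of Myl1-202 lies 9789 bases from that of Myl1-201, and its coding sequence is 38 codons shorter. Myl1-202, the short form, held 96.4% and 96.3% of the gene's TPM. Myl1-201, the long form, held 0.910% in replicate 1 and 0.370% in replicate 2, from 101 and 47.4 expected counts, and was named after its values were seen. The short form was thus 106-fold and 261-fold above the long one.

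**Figure D4:**
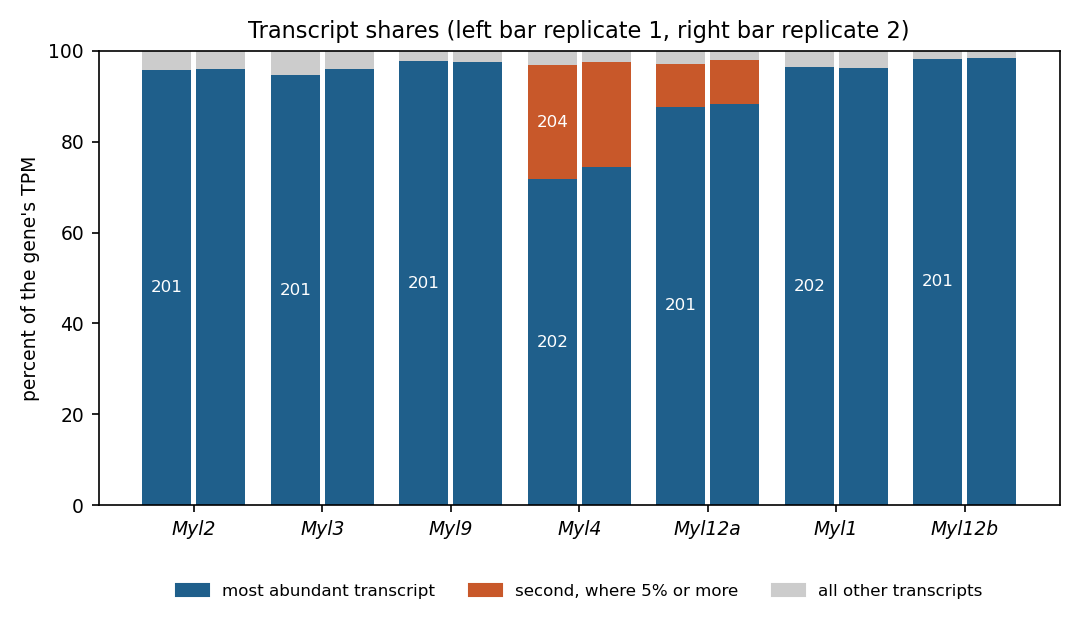
Percent of each gene's TPM (vertical axis) held by its most abundant transcript (blue, with its number), by the second where that reached 5% (orange) and by all others (grey), for the 7 genes with more than 1 transcript, left bar replicate 1 and right bar replicate 2. Orange segments appear only for Myl4 and Myl12a, and the bars of the 2 hearts have nearly the same heights.

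The RefSeq promoter windows (GRCm38.p6, 250 bases before to 50 after each start) were searched for motifs known from muscle promoters. A window held the start of the most abundant transcript for 5 of the 10 genes, Myl3, Myl6, Myl6b, Myl7 and Myl9, and the main starts of the other 5 lay outside theirs. The CArG box, the motif of serum response factor, was found on either strand in the first 200 bases of the windows of Myl9, Myl3 and Myl7, the 3 most abundant of those 5 genes, and in 1.16% of 32851 RefSeq promoters. These windows are printed with the motif in capitals, each 5′ to 3′ on the gene's strand up to 51 bases before the RefSeq start.
Myl9, chr2:156775214-156775413, plus strand: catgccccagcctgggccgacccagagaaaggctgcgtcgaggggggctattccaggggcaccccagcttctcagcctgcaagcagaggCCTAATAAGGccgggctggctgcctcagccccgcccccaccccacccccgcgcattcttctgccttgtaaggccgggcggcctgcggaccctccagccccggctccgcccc
Myl3, chr9:110763428-110763627, plus strand: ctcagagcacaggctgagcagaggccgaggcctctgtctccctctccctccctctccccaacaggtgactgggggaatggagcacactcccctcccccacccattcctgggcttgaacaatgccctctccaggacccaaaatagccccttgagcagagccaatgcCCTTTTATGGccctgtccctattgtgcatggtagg
Myl7, chr11:5898833-5899032, minus strand: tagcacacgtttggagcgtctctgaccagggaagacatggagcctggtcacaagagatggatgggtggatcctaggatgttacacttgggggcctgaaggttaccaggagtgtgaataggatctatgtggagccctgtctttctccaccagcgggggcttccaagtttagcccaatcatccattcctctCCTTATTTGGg
The motif began 161, 85 and 61 bases before the RefSeq start in Myl9, Myl3 and Myl7. The start of the most abundant transcript lay 44 and 32 bases upstream of the RefSeq start in Myl9 and Myl3, and at it in Myl7. The other motifs were searched on both strands in the same first 200 bases. CATTCC, known for TEAD factors, lay there in the windows of Myl3 and Myl7 and in 10.7% of all promoters. TATAAA (9.14% of all promoters) and GATAA (19.3%) were in the first 200 bases of none of the 5 windows. The bases nearest each RefSeq start were not searched, so a TATAAA there would have been missed. A match describes letters in a window, and binding was not measured.

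The hearts were then compared gene by gene, as the log2 ratio of scaled counts in replicate 2 over replicate 1. Of the 10 members, 9 had the mean count of 50 needed, and Myl6b did not. None of the 9 differed 2-fold, against 0.498% of all 13465 genes so measured. Of the 9, 1 was higher in replicate 2 by 1.2-fold or more, against 7.96% of all genes, and 0 were lower by as much, against 7.26%. In either direction that is 1 of 9, against 15.2%. In all, 6 were higher by any amount, against 49.7%, and the members' median log2 ratio was 0.06, against 0.00 for all genes.

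The gene past 1.2-fold was Myl7, with a log2 ratio of 0.36 (1.28-fold). Next came Myl1 at 0.24 and Myl4 at 0.22, and the other 6 of the 9 lay within 0.1 of 0. The ventricular chains Myl2 (0.00) and Myl3 (-0.01) and the smooth muscle chain Myl9 (-0.02) stood near 0, and the sign of Myl2 and Myl3 turned with the scaling. Myl12a was at -0.07, Myl6 at 0.06 and Myl12b at 0.09. With 1 library a heart, none of these differences has a replicate check.

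Atrial markers other than light chains went both ways between the hearts. Of 12 atrial markers, all detected, 7 were higher and 5 lower in replicate 2, with a median log2 ratio of 0.05 and a summed level of 8706 and 8532 TPM in replicates 1 and 2. Of the 12, 2 were higher by 1.2-fold or more and 1 was lower by as much. The 2 were Sln, the atrial calcium pump inhibitor sarcolipin, at 0.36 (733 and 933 TPM), and Mybphl, a myosin binding protein gene of atria, at 0.45 (68.5 and 92.8 TPM). Nppa, the atrial natriuretic peptide gene, was at -0.06 (7696 and 7288 TPM). The 8 ventricular markers, all detected, summed to 558 and 525 TPM, with 5 higher and 3 lower and a median log2 ratio of 0.08. By 1.2-fold or more, 0 of them were higher and 1 was lower. The sarcomeric heavy chains were lower in replicate 2: Myh6 stood at -0.31 and Myh7 at -0.66.

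**Figure D5:**
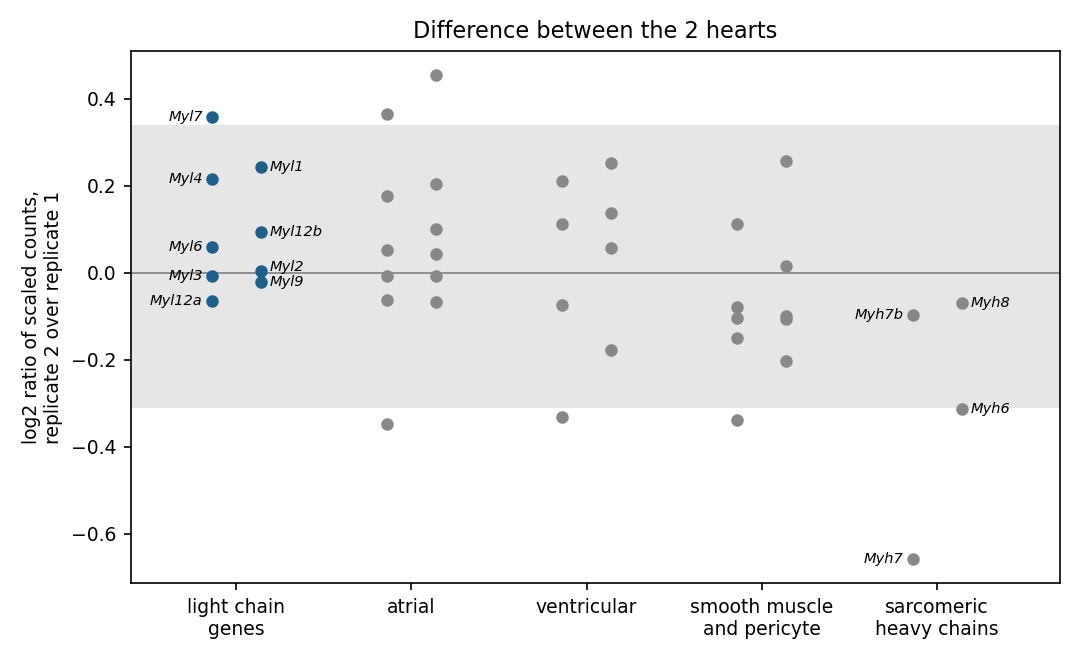
Log2 ratio of scaled counts, replicate 2 over replicate 1 (vertical axis), for the light chain genes and for the atrial, ventricular, smooth muscle and heavy chain genes that had a mean count of at least 50, each point 1 gene; the grey band spans the 5th to 95th percentile of all 13465 genes. Myl7 lies just above the band, the other light chains lie within it, and Myh7 lies well below it.

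Gene length also went with the difference between the libraries. Genes of up to 1000 bases had a median log2 ratio of 0.06 and those above 4000 bases one of -0.07. The light chain genes are short, with mean transcript lengths of 590 (Myl7) to about 1243 bases (Myl12b), and the heavy chains are long. Erythroid markers were lower in replicate 2, summing to 13809 and 8835 TPM in replicates 1 and 2, and all 6 were lower by 1.2-fold or more, Slc4a1 at a log2 ratio of -1.27. All 7 cardiomyocyte markers were detected, with summed levels of 42388 and 39035 TPM, and all 7 fibroblast, 6 endothelial and 5 macrophage markers were detected as well. The part of length or blood in the light chain differences was not tested.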

How the data were processed

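Total RNA of 2 newborn hearts was measured. Extraction used Ambion mirVana, 10 ng entered each library, molecules above 200 nucleotides were kept and spike-ins were added, per the labels. Values were quantified on mm10 with GENCODE M4, per the deposited read-me, with column names of RSEM output. No source used here names the aligner or any version.

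The deposited expected counts are estimates for each gene or transcript that share out reads matching several. The deposited TPM and FPKM values divide them by effective length. The deposited bounds of TPM credibility intervals are a signal in TPM units. Their width is not stated, and they belong to the posterior mean. The deposited TPM of 5 members, Myl2, Myl3, Myl7, Myl9 and Myl4, lay above its own upper bound in each heart. The deposited percent is a transcript's share of its gene.

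Libraries held 46151722 and 44707283 expected counts. Symbols, coordinates and coding sequences came from GENCODE M21 on the same build, in which 4 light chain transcripts have another length. Genes were called detected at 1 TPM in both hearts. Neighbours in the order, and pairs as log2 ratios of TPM + 1, were called where both hearts went the same way by more than they differed and bounds did not overlap. Between hearts, expected counts were rounded, TMM-scaled with edgeR 4.0.16 (R 4.3.3) and compared with a prior count of 2 at a mean count of 50 or more. Coding sequences were aligned globally with biopython 1.88, and tables were handled with Python 3.11.15 and pandas 2.3.3.

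Named genes were all members, their transcripts of 5% or more, and the 4 most abundant genes of each pathway list with any differing 2-fold. Of these, the genes of 1 list and 1 kinase are not reported here. Cell type marker lists are given by counts and sums. Mylk2, Mylk4, Myl10, Myh4, Mybpc2, Myl1-201 and single markers were named after their values were seen. Members, lists, pairs and motifs were chosen with earlier results of these data known. Alternatives were posterior means, FPKM, other pseudocounts and filters, counts not divided by length, DESeq2 1.42.0 size factors and each heart left out.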

Additional observations from a re-analysis of the deposited data

How the results depend on the processing

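Of 248 recomputed values, 219 stayed on the same side of their threshold or moved by less than the spread between the hearts. Among these 219 are 3 differences between the hearts close to 0, of Myl2 and Myl3, whose sign changed. They also include the levels and transcript shares with a heart left out, which could not move further. The mean of 2 hearts lies closer to each heart than their SD, whatever the data. All 10 gene pairs and the 9 steps of the order held under each alternative that was run. For each heart alone this followed from the call, which already required the direction and separate bounds within each heart. FPKM is proportional to TPM within a heart, so the pairs in FPKM could hardly differ either. The other pseudocount, the posterior means and FPKM were judged with the same deposited bounds of TPM, and expected counts without bounds. The rule on bounds was therefore not tested anew in those settings. In expected counts not divided by length, the ratios of sarcomeric essential and regulatory chains to sarcomeric heavy chains reversed, to log2 ratios of -1.87 and -1.33. With no filter on low counts, 2 members in place of 1 differed 1.2-fold between the hearts, Myl6b being the addition, and 41.6% of 23812 genes did so in place of 15.2%. Over 6 other scalings and filters, the log2 ratio of Myl7 ran from 0.34 to 0.37, that of Myl4 from 0.20 to 0.23 and that of Myl1 from 0.23 to 0.26, while Myl2 ran from -0.01 to 0.02 and Myl3 from -0.03 to 0.01. Levels in FPKM or rescaled to nuclear genes differ by construction. In counts, the share of Myl4-204 was 18.4% and that of Myl12a-206 18.2%. Leaving out a heart leaves no difference between hearts, so that was not run. No paired analysis was possible because there is 1 group. The count behind Myl6b, 26 and 18, is the lowest of the members, and every SD rests on 2 hearts.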
